A study of Mus musculus with 2 samples.

Results

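Foxp3+ regulatory T (Treg) cells were examined in the mediastinal lymph nodes (MedLNs), which drain the lung, of mice with ovalbumin (OVA)-induced asthma. The cells were chosen by their own RNA: a cell was kept if it held at least 1 unique molecular identifier (UMI) of Foxp3 and at least 1 of Cd3e, Cd3d or Cd3g, and no UMI of Cd8a, Cd8b1, Cd79a, Cd79b, Mki67 or Top2a. This left non-cycling, CD8-negative T cells, and 246 of the 18100 cells that had at most 10% mitochondrial UMIs and at least 200 genes met the rule. The rule reads measured values, so Foxp3 and the other genes in it are described and not tested.

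The 246 cells came from 2 droplet libraries of WT C57/B6J mice, each made from the pooled total MedLN cells of 4 animals, and both groups had asthma. All mice were given 50 µg OVA with alum by intraperitoneal injection on days 0 and 7, were challenged with intranasal OVA on days 14 to 16, and were killed on day 17. One group additionally received butyrate, a short-chain fatty acid of the gut microbiota (122 cells without and 124 cells with butyrate). The route of butyrate for these mice, drinking water or gavage, is not given in the sources used here, and the study states only that its mice were 5 to 13 weeks old and matched by age and sex. No library of mice without asthma was analysed here. Since each condition was a single library of pooled mice, mice and library cannot be told apart from butyrate, and no difference between conditions was tested. The 95% intervals (exact binomial for shares, exact Poisson for sums of UMIs and exact conditional binomial for ratios) cover counting error only. Fewer cells of a kind within the gate and less RNA per cell cannot be told apart in the sums below.

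Treg cells restrain the activation of other lymphocytes. Their lineage depends on the transcription factor Foxp3, and they carry the high-affinity interleukin (IL)-2 receptor, whose α chain is CD25 (Il2ra), and the inhibitory receptor CTLA-4, which removes costimulatory ligands from antigen-presenting cells. In lymph nodes, resting Treg cells recirculate with the help of the homing receptor CCR7, whereas effector Treg cells lose it and gain receptors for inflamed tissue, and some carry the IL-33 receptor ST2 (Il1rl1) and KLRG1. Butyrate is known as an inhibitor of histone deacetylases and as a ligand of the receptors encoded by Ffar2, Ffar3 and Hcar2, and it has been studied as an inducer of Foxp3 in the gut.

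The label was first compared with marker genes that the rule did not use. Ikzf2, which encodes the Treg transcription factor Helios (GRCm38 chr1:69531214-69687245, minus strand), had 675 UMIs per 1000000 UMIs of its class (CPM) without and 672 CPM with butyrate in Treg cells, against 49.2 and 35.6 CPM in conventional CD4+ T cells (the same gate with a Cd4 UMI and no Foxp3 UMI). Il2ra (chr2:11642807-11693193, plus strand) had 219 and 214 CPM in Treg cells against 8.20 and 9.74 CPM. Ctla4 (chr1:60887000-60915832, plus strand) had 447 and 353 CPM against 45.8 and 34.7 CPM. The 3 markers were therefore higher in Treg cells of both libraries, with counting intervals that did not overlap those of conventional cells, and they were at 24.6 CPM or less in CD8+ T cells and B cells. Gpr83, a receptor found on Treg cells, was at 76.6 and 99.4 CPM against 8.20 and 3.80 CPM in conventional cells, and Izumo1r, which encodes folate receptor 4, was at 475 and 551 CPM against 128 and 109 CPM. Capg, an actin-capping protein, separated Treg cells from conventional CD4+ T cells (179 and 242 CPM against 29.6 and 40.4 CPM) but not from B cells, which had 276 and 282 CPM. A UMI of Cd4 was found in 58 of 122 and 61 of 124 Treg cells, so the rule did not rest on Cd4.

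**Figure D1:**
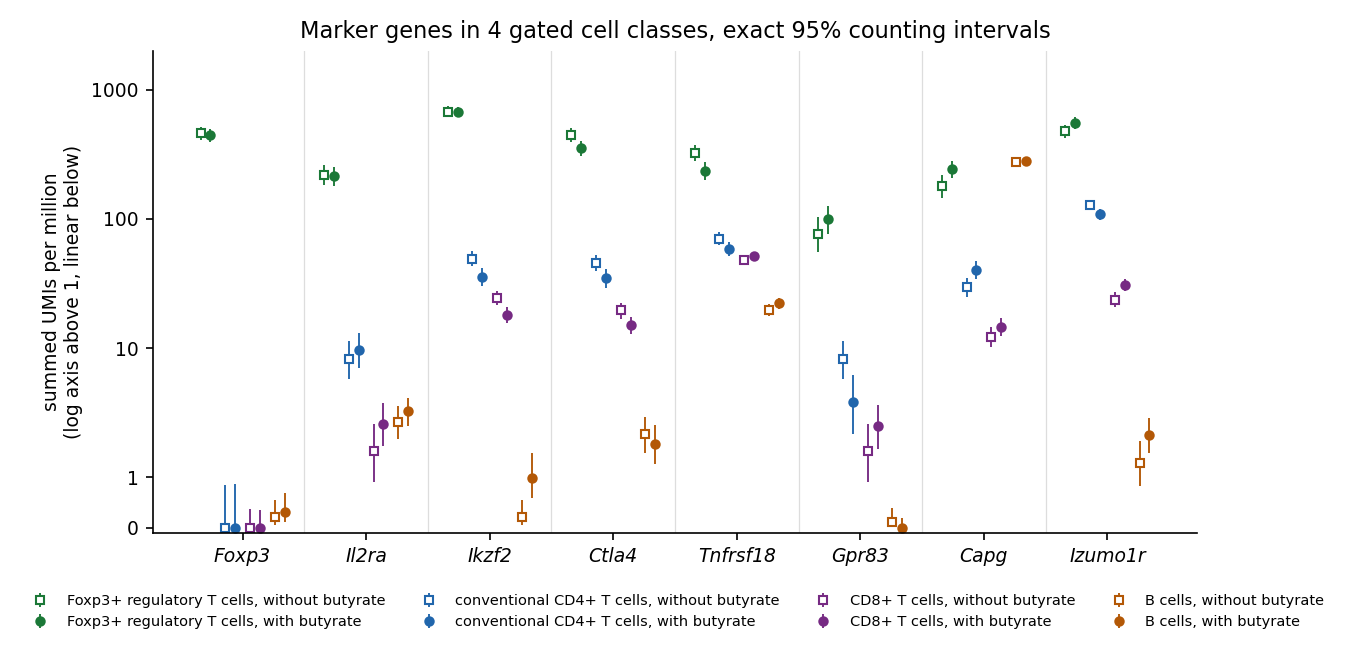
Summed CPM (vertical axis, log scale above 1 and linear below) of 8 marker genes in Treg cells, conventional CD4+ T cells, CD8+ T cells and B cells, with open squares without and filled circles with butyrate and bars for exact 95% counting intervals. Il2ra, Ikzf2, Ctla4 and Gpr83 lie highest in Treg cells of both libraries, Foxp3 is at 0 in the conventional and CD8+ classes because they were gated on its absence, and Capg is higher in B cells than in Treg cells.

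Several defining markers of other cells had few UMIs. Ms4a1 (CD20) had 5 and 3 UMIs over all Treg cells without and with butyrate, Lyz2 0 and 1, and Ncr1 0 in both libraries. The γδ T cell gene Trdc had 24 UMIs in 5 cells without and 5 UMIs in 3 cells with butyrate. Immunoglobulin RNA was present: the B cell list of 14 genes summed to 896 and 667 CPM, with Ighm the most abundant at 445 and 352 CPM, and Cd79a and Cd79b at 0 by the rule. The CD8 T cell list of 7 genes summed to 111 and 27.5 CPM, of which Ccl5 made up 71.3 and 13.8 CPM. For the myeloid list of 16 genes the sums were 144 and 124 CPM, of which Cst3, a gene also read in other cells, made up 127 and 107 CPM, and C1qb, C1qc, Csf1r, Itgax and Xcr1 were at 0. The plasma cell list reached 97.4 and 59.7 CPM, the γδ T cell list 57.4 and 15.3 CPM and the stromal list, whose most abundant gene was Pecam1, 53.9 and 82.6 CPM. In the NK and ILC list, 508 and 462 CPM, the top gene was Il7r at 440 and 385 CPM, which T cells also express. The libraries shared 25 barcodes, and none belonged to a Treg cell.

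Not every cell with Foxp3 RNA entered the gate. A Foxp3 UMI was found in 257 cells without and 225 cells with butyrate, of which 253 and 215 also held a Cd3 UMI. A Cd79a or Cd79b UMI alone removed 54 and 41 of these, and in 34 and 27 of them it was exactly 1 UMI. A Cd8 UMI alone removed 17 and 16 cells, cycling genes alone 18 and 10, and more than 1 reason 42 and 24. The cells in the gate were shallower than those left out for more than 1 reason, with medians of 4091.5 and 4619 UMIs per cell against 19886.5 and 16252.

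Treg cells made up 6.83% (95% interval 5.70 to 8.10) of the 1787 T cells of the same gate without butyrate and 8.48% (7.10 to 10.0) of 1463 with butyrate, a log2 ratio of 0.31 whose interval, −0.06 to 0.68, included 0. Among all cells the shares were 1.28% and 1.44%. The cells were deeper with butyrate, and a deeper cell shows a Foxp3 UMI more often. After each cell was thinned to 2000 UMIs, the shares of the gate were 4.71% (105 of 2227) and 4.97% (94 of 1890), with a log2 ratio of 0.08 (−0.34 to 0.49). The rule was applied after thinning, so cells whose Cd8, Cd79 or cycling UMIs were lost entered the gate. The thinned gate therefore held more cells than the 1787 and 1463 above and is not the same set. Among all cells the thinned shares were 1.12% and 1.10%. A difference in the share of Treg cells was thus not detectable at this depth and number of cells. For comparison, a Foxp3 UMI was found in 0.108% and 0.169% of B cells (median depths 4389 and 4629.5 UMIs), never more than 1 in a cell, which is taken as the background for this gene. The share was 0.663% and 0.589% in CD8+ T cells, where up to 4 and 2 Foxp3 UMIs lay in a cell with at least 2 Cd8 UMIs and no Cd4 UMI, so that share is not read as background.

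The threshold of 1 Foxp3 UMI was then examined. Foxp3 (chrX:7573644-7595245, plus strand) had 264 and 289 UMIs over the Treg cells, and no cell had more than 9. Without butyrate, 49 cells had 1 UMI, 35 had 2 and 38 had 3 or more, and with butyrate the numbers were 45, 39 and 40. Just outside the threshold, in T cells of the gate with no Foxp3 UMI, 19.3% (321 of 1665) without and 19.0% (254 of 1339) with butyrate held a UMI of Il2ra, Ikzf2 or Ctla4. Just inside it, among cells with exactly 1 Foxp3 UMI, 87.8% (43 of 49) and 84.4% (38 of 45) did, and among cells with 2 the shares were 100% and 89.7%. The step thus lay between 0 and 1 UMI. Ikzf2 stood at 70 and 55 CPM in cells with no Foxp3 UMI and at 558 and 706 CPM in cells with 1, while Igfbp4, an insulin-like growth factor binding protein gene of naive CD4+ T cells, stood at 384 and 465 CPM outside and 93 and 102 CPM inside.

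**Figure D2:**
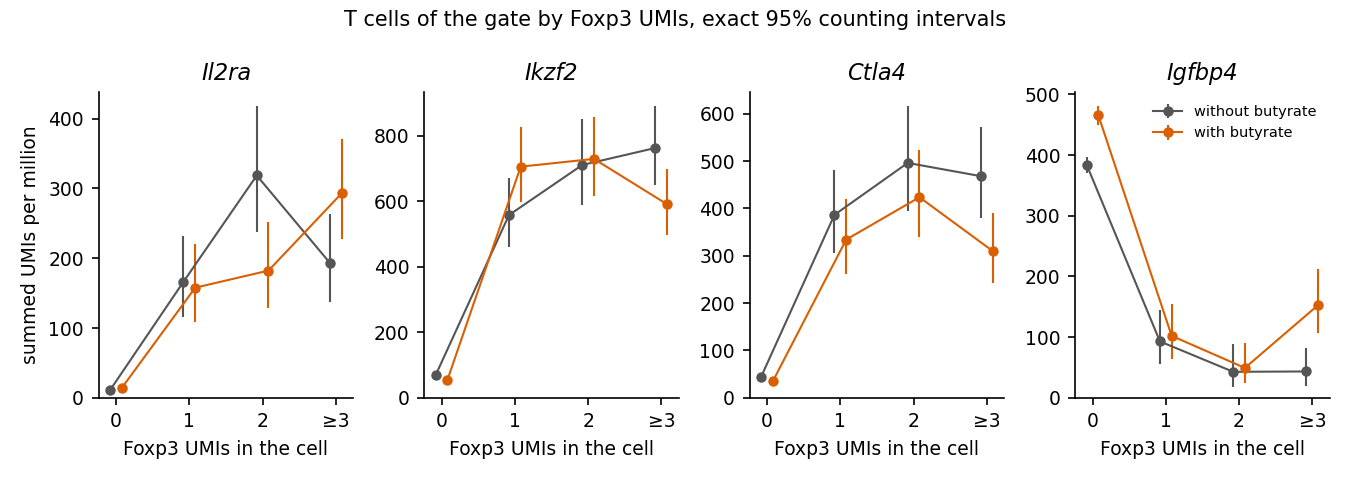
Summed CPM of Il2ra, Ikzf2, Ctla4 and Igfbp4 (vertical axes) in T cells of the gate with 0, 1, 2 or at least 3 Foxp3 UMIs (horizontal axes), in grey without and in orange with butyrate, with exact 95% counting intervals. In both libraries the largest step for Ikzf2, Ctla4 and Igfbp4 is between 0 and 1 UMI, the edge of the rule. For Il2ra without butyrate, the step from 1 to 2 UMIs (166 to 319 CPM) is about as large as that from 0 to 1 (11.4 to 166 CPM).

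Next, Treg cells were set against conventional CD4+ T cells within each library, by the log2 ratio of CPM + 10. Of 6375 genes with enough UMIs, 87 (1.36%) were at least 1 higher in both libraries and 26 (0.408%) at least 1 lower, and the median of all genes was 0.09 and 0.11. After thinning to equal depth, 47 of the 3416 genes still measured were higher, and with cycling cells kept 142 of 6792 were, of which 65 were among the 87. Conventional cells here include Treg cells in which Foxp3 was missed, which draws the ratios towards 0. Of the 16 genes of the Treg identity list, 12 had enough UMIs, and these were higher past this fold, Foxp3 by the rule. Il2ra (36 and 41 UMIs in conventional cells), Gpr83 (36 and 16) and Ikzf4 (30 and 31) had enough UMIs through the Treg cells, where they were high, so the count is a description. The 12 included Ikzf2 (3.53 and 3.90), Il2ra (3.65 and 3.51), Ctla4 (3.03 and 3.02), Tnfrsf4, which encodes the costimulatory receptor OX40 (3.68 and 3.35), Tnfrsf18, which encodes GITR (2.06 and 1.83), and Ikzf4, which encodes the Helios-related factor Eos (2.53 and 2.41).

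In the IL-2 receptor list, 3 of 11 measured genes passed, beside 1.36% of all genes. Of these, Il2ra in both libraries and Cish (48 UMIs in conventional cells with butyrate) in 1 had enough UMIs only through the Treg cells, so this count too is a description. The 3 were Il2ra, the β chain gene Il2rb (292 and 332 CPM in Treg cells, 25.3 and 25.4 CPM in conventional cells) and Cish, a feedback inhibitor of cytokine signalling (log2 ratios of 2.24 and 2.33). The common γ chain gene Il2rg, in contrast, had 299 and 307 CPM in Treg cells and 278 and 263 CPM in conventional cells, and Jak1 log2 ratios of −0.01 and 0.07. Of the 6 measured suppressive molecules, Ctla4, Nt5e (the ectoenzyme CD73, 1.69 and 1.79) and Lgals1 (galectin-1, 1.15 and 1.33) passed, and Tgfb1 did not (0.51 and 0.68).

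From the 22 genes of the effector list, 11 had enough UMIs and 7 of these passed, beside 1.36% of all genes, which is a description as well. They included S100a6 (3.10 and 3.37), S100a4 (2.34 and 3.16), Icos (1.52 and 1.58), Maf (1.47 and 1.67) and Rora (1.57 and 2.04), which with butyrate had 37 UMIs in conventional cells and so had enough only through the Treg cells. Id2 (−0.01 and −0.46), Cd44 (1.07 and 0.14) and Itgb1 (0.74 and 0.47) were among those that did not pass. In the resting homing list, 2 of 12 were lower past the fold, beside 0.408% of all genes. They were the transcription factor genes Lef1 (205 and 237 CPM against 524 and 543 CPM) and Tcf7 (204 and 188 CPM against 440 and 480 CPM). Klf2, in contrast, had ratios of −0.10 and 0.11. The lowest ratios among abundant genes were those of Igfbp4 (−2.61 and −2.24) and Dapl1 (−2.28 and −2.57), with Gm12840, Rflnb, Commd8, Arl4c and Actn1 also among those lower past the fold. Rgs1, a regulator of chemokine receptor signalling, was at 715 and 641 CPM against 126 and 125 CPM. Further genes past the fold were Dusp1 (1.59 and 1.43) and Nfkbia (1.21 and 1.19), both rapid feedback inhibitors, and the interferon-response gene Samhd1 (1.22 and 1.65), the only one of 33 such genes. Cd40lg, the B cell helper ligand, was lower (−1.54 and −1.12).

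**Figure D3:**
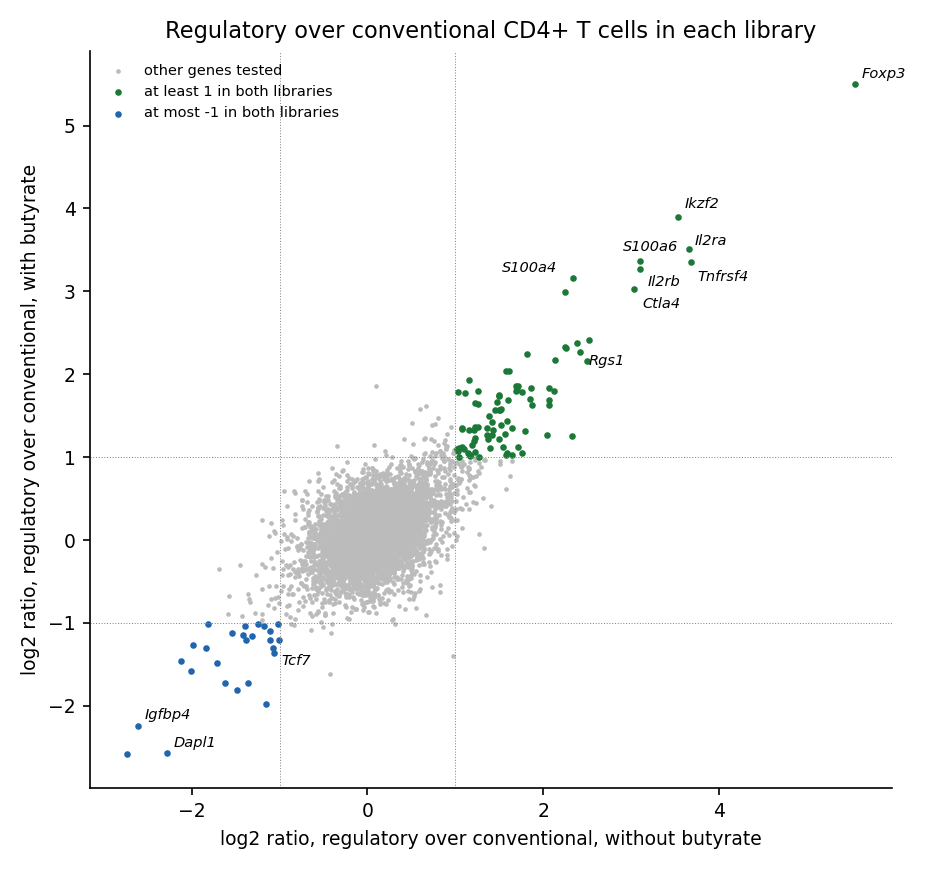
Log2 ratio of CPM + 10 in Treg over conventional CD4+ T cells without butyrate (horizontal axis) and with butyrate (vertical axis), 1 point for each of 6375 genes. Green points are at least 1 in both libraries (87 genes, led by Foxp3, which the rule used), blue points at most −1 in both (26 genes, Igfbp4 and Dapl1 lowest among the named), and dotted lines mark the fold.

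Many conventional CD4+ T cells of a lymph node are naive, so the comparison was repeated against the 73 and 99 conventional cells with a Cd44 UMI, a choice made once the values were known. Il2ra then had ratios of 3.28 and 2.50, Ikzf2 2.33 and 2.81, Ctla4 1.90 and 1.75 and Il2rb 2.19 and 2.02. These were again higher past the fold, as was S100a6 (1.31 and 1.61). Izumo1r (0.92 and 1.17) and Nrp1 (1.28 and 0.87) did not pass in both libraries. In these conventional cells Il2ra had 6 and 20 UMIs, Il2rb 25 without butyrate and Nrp1 25 and 41. These genes had enough UMIs there only through the Treg cells, so their ratios are a description and no support. Of 2545 genes measured, 31 were higher past the fold, and 28 of them were among the 87. Lef1 was at −0.58 and −0.72, while Tcf7 remained lower past the fold at −1.05 and −1.37.

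Treg cells were not uniform. S1pr1, the receptor for exit from the node, was found in 49.2% and 60.5% of cells, Ccr7 in 34.4% and 39.5%, and Lef1 in 51.6% and 55.6%. At 2000 UMIs per cell the shares were 30.3% and 41.0% for S1pr1, 14.3% and 27.9% for Ccr7 and 27.7% and 36.1% for Lef1. At the same depth they were 66.4% and 52.5% for Ikzf2 and 58.0% and 42.6% for Ctla4. B cells also express S1pr1 and Ccr7, so they give no free-RNA background for these genes. Helios RNA was seen in 89 of 122 and 87 of 124 cells, and the cells were split by an Ikzf2 UMI, a choice made after values were seen. Counts past a fold are not given for this split, because the more numerous Ikzf2+ cells largely set which genes had enough UMIs. S100a6 had 231 UMIs in Ikzf2+ cells and 3 in the others without butyrate, and 301 and 0 with butyrate. Nrp1 (log2 ratios of 2.15 and 1.47), Batf (1.31 and 2.03) and Lgals1 (1.29 and 2.69) were also higher in Ikzf2+ cells. S1pr1 (−0.63 and −0.89) and Klf2 (−0.81 and −0.56) were lower by less than 1. Igfbp4 (−1.32 and −1.49) and Dapl1 (−2.18 and −2.76) were lower by more, though each had fewer than 50 UMIs in at least 1 library. An Ikzf2 UMI marks a range and not a type, because a cell with little Ikzf2 RNA can show none.

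S100a4 and S100a6, which encode calcium-binding proteins of activated T cells, were concentrated in few Treg cells, so the cells with a UMI of Klrg1 or Il1rl1 were looked at on their own, a split made after these values were seen. There were 15 such cells without (12.3%, 7.05 to 19.5) and 11 with butyrate (8.87%, 4.51 to 15.3). They held 81 of the 89 S100a4 UMIs of all Treg cells without butyrate and 100 of 135 with butyrate. For S100a6 the numbers were 188 of 234 and 220 of 301, and 1 cell of each library held 79 and 108 of its UMIs. Gata3, the type 2 transcription factor, was higher in them than in the other Treg cells (log2 ratios of 1.76 and 1.97), as were Rora (2.45 and 2.18) and Maf (1.81 and 2.21). Ikzf2 stood at 1195 and 1568 CPM in them against 593 and 565 CPM in the others. Of the UMIs of Areg, which encodes the tissue repair factor amphiregulin, 9 of 10 and 13 of 16 lay in these cells, 10 of the latter in 1 cell. Lef1 (−1.24 and −1.99) was lower, and Foxp3 itself differed little (−0.25 and −0.04).

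Genes of other states were detected in few cells. A UMI of Cd4 itself was found in only 58 of 122 and 61 of 124 Treg cells. Few cells with a UMI therefore do not show that a state is rare. Itgae (CD103) was found in 4 and 9 cells, Cxcr3 in 4 and 8, Pdcd1 (PD-1) in 8 and 6, Il10 in 4 and 1, Lag3 in 4 and 5, and Tbx21 in 1 and 0. Cxcr5, which guides cells to the follicle, was found in 6 and 10 cells, but together with Pdcd1 or Bcl6 in only 1 and 3, and Cxcr5 RNA is abundant in the B cells of the same libraries. Il4, Il13, Il17a and Il21 had no UMI in any Treg cell, which allows up to 2.46% of cells without and 2.42% with butyrate to hold a UMI. Gata3 was at 124 and 109 CPM and was detected in 35.2% and 31.5% of Treg cells, and at 2000 UMIs per cell in 24.4% (29 of 119) and 13.1% (16 of 122).

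**Figure D4:**
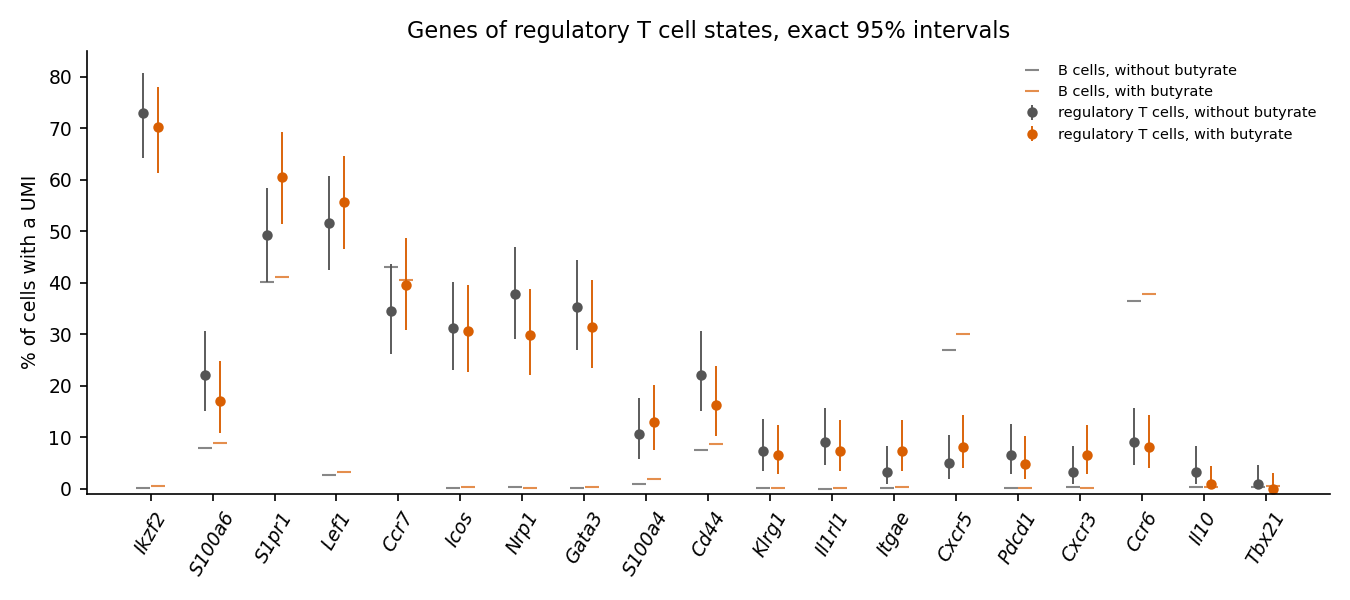
Share of Treg cells with a UMI (vertical axis, %) of genes of resting, effector, tissue and follicular states (horizontal axis), in grey without and in orange with butyrate, with exact 95% intervals and short lines for the share in B cells of the same library. Intervals of the libraries overlap for every gene drawn, and for Ccr7, S1pr1, Cxcr5 and Ccr6 the B cells themselves show a large share.

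The question of the series, what butyrate does to the cells of the node, was then put to the Treg cells by summing their UMIs in each library (574722 without and 653731 with butyrate). A gene was called past the fold at a log2 ratio of CPM + 10 of at least 0.5 in size, a scale that understates the change of low genes, and intervals are those of the ratio without the added 10. Of 3040 genes with at least 50 UMIs, 125 (4.11%) were higher and 148 (4.87%) lower with butyrate, with a median of −0.0044 over all genes. These shares are the background against which each list is read. A gene with 50 UMIs over both sums had a counting interval of about ±0.863 and one with 200 of about ±0.415, so that a ratio of 0.5 lies within counting error for the former and outside it for the latter. Among the 1352 of them that reached 100 CPM in a library, 23 were higher and 49 lower past the fold. After thinning to equal depth per cell, 1221 genes were still measured, of which 60 were higher and 93 lower.

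Ikzf2 and Il2ra, which the rule did not use, showed little difference. Il2ra, with 126 and 140 UMIs, was at −0.03, and Ikzf2, with 388 and 439, at −0.01 (−0.21 to 0.19). Of the 14 measured identity genes, 0 were higher and 2 lower past the fold, with a median of −0.04. The 14 include Foxp3 (264 and 289 UMIs, −0.05), whose level the rule constrains, so that its ratio supports nothing. The 2 were Tnfrsf9, which encodes the costimulatory receptor 4-1BB (45 and 28 UMIs, −0.74), and Lrrc32, which encodes GARP, the anchor of latent TGF-β (56 and 37 UMIs, −0.69). Short of the fold, Ctla4 had 257 and 231 UMIs (−0.33, interval −0.60 to −0.08) and Tnfrsf18 187 and 153 (−0.46, −0.79 to −0.16), intervals that lay below 0, whereas that of Capg (103 and 158 UMIs, 0.41) lay above 0. In conventional cells the ratios were −0.32 for Ctla4, −0.23 for Tnfrsf18 and 0.35 for Capg.

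None of the 11 measured IL-2 receptor pathway genes passed the fold in either direction, with a median of 0.04. Of the 5 measured suppressive molecules only Gzmb did, and its UMIs came from single cells: 40 of 44 UMIs without and 15 of 19 with butyrate lay in 1 cell each. The 12 resting homing genes had a median of 0.04, with Ly6c1 lower (127 and 99 UMIs, −0.52) and S1pr1 at 129 and 199 UMIs (0.42, 0.11 to 0.77). In the effector list, 1 of 14 measured genes was higher and 4 were lower, with a median of −0.07. The higher gene, Klrg1, had 24 UMIs in 9 cells and 56 UMIs in 8 cells, 19 of the latter in 1 cell, and with cycling cells kept its ratio was −0.0024. The lower genes were Gzmb, Tnfrsf9, Cd44 (−0.65) and Id2 (−0.57). Of 9 measured chemokine and homing receptors, 0 passed the fold, with a median of 0.22, and of 10 checkpoint and costimulatory receptors only Tnfrsf9 did.

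Genes that induce or stabilise Foxp3 were mostly within the fold. Of 12 measured, 2 were higher, Rara, the retinoic acid receptor α gene (17 and 42 UMIs, 0.91, interval 0.28 to 2.02) and Runx1, a partner of Foxp3 (41 and 71 UMIs, 0.54, 0.03 to 1.20), and 1 was lower, Rel, an NF-κB subunit gene (59 and 45 UMIs, −0.52). The median of the list was 0.05. Smad7, an inhibitor of TGF-β signalling, had 138 and 200 UMIs (0.34). Among the histone deacetylases only Hdac1 (62.6 and 71.9 CPM) and Hdac7 (80.0 and 81.1 CPM) had enough UMIs, and both lay within the fold. No UMI of Ffar2, Ffar3 or Hcar2 was found in any Treg cell of either library. This allows up to 2.46% of cells without and 2.42% with butyrate to hold a UMI, so absence of the receptors is not shown. Ffar2 also had no UMI in conventional CD4+ T cells. Bsg, the chaperone of the monocarboxylate transporters, was at 118 and 132 CPM.

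Among abundant genes the lowest ratio was that of Iigp1, an interferon-induced GTPase gene (68 and 30 UMIs, −1.20, interval −2.04 to −0.73, −0.65 in conventional cells). Tnfsf8, the CD30 ligand gene, had 116 and 62 UMIs (−1.01, −1.56 to −0.63) and a ratio of 0.18 in conventional cells. Samsn1 (105 and 58 UMIs, −0.96), a signalling adaptor, Cd82 (81 and 44 UMIs, −0.97), a tetraspanin, and Rgs2 (132 and 79 UMIs, −0.87) were also among the 10 lowest, with Gbp2, 2310001H17Rik (−0.93) and Ubald2 (−0.76). So was Igkc, an immunoglobulin gene (108 and 55 UMIs, −1.07, and −0.72 in conventional cells), whose source was not tested. At the other end were Tmem123 (32 and 74 UMIs, 0.91, interval 0.41 to 1.67, 0.03 in conventional cells), Esyt2 (0.85), Trim59 (0.70), Igfbp4 (35 and 68 UMIs, 0.69, and 0.31 in conventional cells), Ccdc88c (0.68), Ppp2r5a (0.68), Ptpn7 (0.67), Ptbp3 (0.63), Bod1l (0.62) and Thoc2 (0.59). Whether these ratios are particular to Treg cells was not tested.

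Ighg1, the IgG1 heavy chain gene, which T cells do not make, had 1 UMI in each of 9 Treg cells without and in 0 with butyrate, and a UMI was found in 9.77% and 0% of conventional CD4+ T cells and 8.29% and 0.84% of B cells. Ighe had none in Treg cells. The source of this RNA and its part in the ratios of other genes were not tested. Of 18 measured genes of handling stress, 4 were lower past the fold, beside 4.87% of all genes. They were Hsph1 (−0.91), Ier2 (−0.75), Dusp1 (−0.54) and Nfkbia (−0.52). The list median was −0.10 in Treg cells, −0.26 in conventional CD4+ T cells, −0.19 in CD8+ T cells and −0.11 in B cells. Of 9 measured T cell receptor early genes, with a median of −0.15, Fosb, an immediate early gene, was higher (14 and 38 UMIs, 0.99, against −0.49 in conventional cells) and Ier2 lower past the fold (−0.12 in conventional cells).

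Interferons act through receptor-bound kinases and the transcription factors these activate to switch on antiviral genes. Of 38 genes of the interferon-response list, 30 had enough UMIs, and 10 were lower past the fold (beside 4.87% of all genes) and 0 higher, with a median of −0.44. With 1 Cd79 and 1 Cd8 UMI allowed, 21 of 31 measured members were lower (median −0.69), beside 4.56% of all genes. Among genes with at least 200 UMIs, 3 of 9 members were lower, beside 2.39% of all genes. The summed list went from 5368 UMIs (9340.2 CPM) to 4590 UMIs (7021 CPM), a log2 ratio of −0.41 (−0.47 to −0.35). The same list had ratios of its sum of −0.64 in conventional CD4+ T cells, −0.58 in CD8+ T cells and −0.31 in B cells of the same libraries, so the lower level was not confined to Treg cells. By this sum, Treg cells were the highest of the 4 classes in both libraries. The sum was 6936 and 4443 CPM in conventional cells, 5538 and 3706 CPM in CD8+ T cells and 5416 and 4356 CPM in B cells. Ifi27l2a alone made up 2389 and 1426 CPM of the sum in Treg cells. The median ratio of 33 measured members in Treg over conventional cells was 0.11 without and 0.44 with butyrate. All genes had medians of 0.09 and 0.11, and 1 of the 33 passed the fold of 1 in both libraries.

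Ifi27l2a, an interferon-induced mitochondrial protein gene (chr12:103442167-103443680, minus strand), had 1373 UMIs (2389 CPM) without and 932 UMIs (1426 CPM) with butyrate, a log2 ratio of −0.74 (−0.87 to −0.62). This interval lay below the fold of −0.5. Isg15, the ubiquitin-like modifier gene, had 84 and 54 UMIs (−0.75, and −1.42 in conventional cells), and Bst2, which encodes tetherin, 110 and 80 UMIs (−0.61). Rtp4 (−0.97), Gbp2 (−0.95), Xaf1 (−0.83), Irf7 (−0.82), Isg20 (−0.58) and Ifi203 (296 and 235 UMIs, −0.51) were also past the fold. Not all members were lower. Ly6e, with 820 and 892 UMIs, was at −0.06, and Samhd1, a nucleotide-cleaving restriction factor, with 320 and 369 UMIs, at 0.02. Ifit1 had 35 and 44 UMIs (0.12) and Ifit3 33 and 42 (0.14) in Treg cells, against ratios of −1.15 and −1.63 in conventional cells, and of the Ifit3 UMIs 11 without and 18 with butyrate lay in 1 cell. That difference between the classes was not tested.

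**Figure D5:**
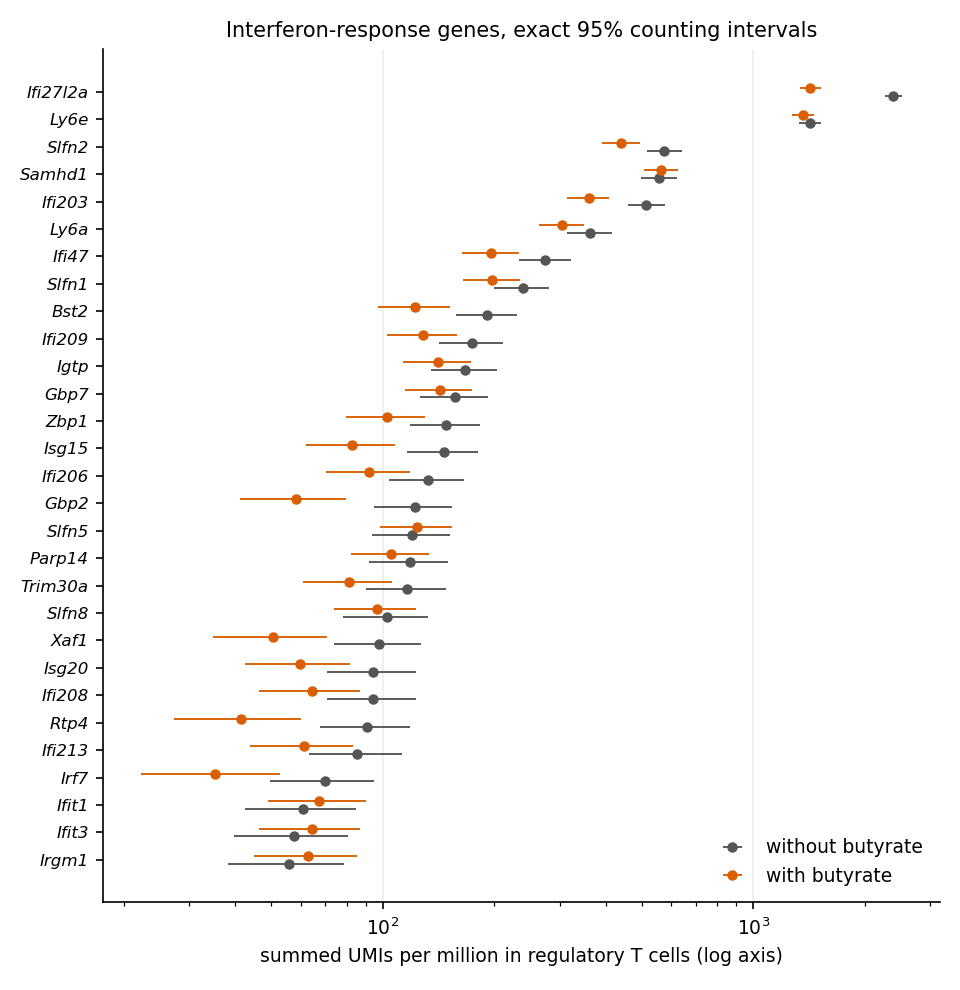
Summed CPM in Treg cells (horizontal log axis) of 29 of the measured interferon-response genes, ordered by their level without butyrate, in grey without and in orange with butyrate, with exact 95% counting intervals. The orange point lies to the left of the grey one for 24 of 29 genes, with intervals that do not overlap for Isg15, Ifi27l2a, Ifi203, Ifi47, Rtp4, Bst2, Xaf1, Slfn2 and Gbp2, while those of Ly6e, Samhd1 and Slfn5 lie together.

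The lower sum was found in each subset of Treg cells looked at, but not to the same extent. The log2 ratio was −0.34, −0.64 and −0.28 in cells with 1, 2 and at least 3 Foxp3 UMIs. In cells with an Ikzf2 UMI the list had 9059 CPM without and 7313 CPM with butyrate (−0.31, −0.38 to −0.24), and in those without one 10193 and 6313 CPM (−0.69, −0.80 to −0.58). Per cell, at 2000 UMIs, the list had a median of 17 UMIs without butyrate, from 2 to 63 over 119 cells, and a median of 11 with butyrate, from 1 to 91 over 122 cells. The cells of both libraries overlapped over most of their range.

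Promoters of these genes were searched for the letters GAAANNGAA, the core of the element that interferon-activated factors bind, on both strands, in RefSeq sequence of GRCm38.p6 from 250 bases before to 50 after each start. At least 1 match was found in 19 of the 28 list genes that the promoter table holds (67.9%), beside 2638 of 27025 genes overall (9.76%), or 2812 of 32851 promoters (8.56%). Of the genes that were lower past the fold, 4 of 7 matched genes held it (57.1%). The stretches below are shown because they carry the match in the 3 list genes with the most UMIs in Treg cells among those with one, and capitals mark the matched letters.
Ifi203: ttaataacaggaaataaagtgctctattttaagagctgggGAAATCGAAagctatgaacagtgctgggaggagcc
Bst2: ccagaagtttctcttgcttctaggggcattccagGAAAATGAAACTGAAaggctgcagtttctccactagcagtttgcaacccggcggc
Igtp: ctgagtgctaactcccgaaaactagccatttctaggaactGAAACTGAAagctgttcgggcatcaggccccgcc
They lie at chr1:173942493-173942567 (minus strand), chr8:71537548-71537636 (minus strand) and chr11:58199482-58199555 (plus strand), each read 5′ to 3′ on the strand of its gene. The match begins 35 bases before the start in Ifi203 and 34 in Igtp. In Bst2, 2 matches overlap, the second beginning 124 bases before the start. Ifi203 and Bst2 were lower past the fold and Igtp, at −0.23, was not. A match describes letters in the reference and shows neither binding nor a cause of the ratios.

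The 10 measured genes of the NF-κB and p38 list had a median of −0.33. It was −0.58 when a Cd4 UMI was required and −0.15 with genes of at least 10 UMIs. Of the 10 genes, 5 were lower past the fold (beside 4.87% of all genes) and 0 higher (beside 4.11%). They were Tnfaip3, which encodes the feedback inhibitor A20 (168 and 111 UMIs, −0.75, interval −1.14 to −0.43), Nfkbia, which encodes IκBα (411 and 324 UMIs, −0.52, −0.74 to −0.32), Rel, and the RNA-decay factors Zfp36l1 (288 and 225 UMIs, −0.53) and Zfp36l2 (473 and 378 UMIs, −0.50). Nfkb1 (0.09), Nfkbiz (0.00) and Rela (−0.03) lay near 0. Whether inhibitors and decay factors were lower more often than the other members of the list was not tested. The summed list had a log2 ratio of −0.44 (−0.54 to −0.34) in Treg cells, −0.39 in conventional CD4+ T cells, −0.23 in CD8+ T cells and −0.03 in B cells. Nfkbia also belongs to the stress list, and a part of cell handling in its level was not tested.

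Metabolic genes differed little. Of 13 measured glycolytic genes, 1 was lower, the glucose transporter gene Slc2a3 (31 and 23 UMIs, −0.50), and the median was −0.04. None of 4 measured genes of fatty acid oxidation passed the fold, with a median of −0.02. Of 6 follicular regulatory genes, Il21r, the IL-21 receptor gene, was higher (54 and 91 UMIs, 0.52, interval 0.07 to 1.08, and −0.09 in conventional cells). Of the 3 measured ST2 tissue genes only Klrg1 passed.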

How the data were processed

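From 10x Single Cell 3′ v3 libraries the authors counted unique molecular identifiers (UMIs) in Cell Ranger 6.0.1 against mm10, per the submitters' processing notes, and deposited the raw counts of 31053 genes, not normalized. The deposited cells numbered 9681 without butyrate (59176459 UMIs) and 8932 with butyrate (58381292 UMIs). Of the study's filters, those on mitochondrial UMIs (at most 10%) and genes (at least 200) were applied here and left 9495 and 8605 cells. The study also removed doublets, which was not repeated here: Scrublet (scanpy 1.11.5) marked 1 and 3 of the 246 cells, and leaving them out was an alternative.

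UMIs were summed per library and class and compared as log2 ratios of UMIs per 1000000 (CPM) with 10 added, where a gene had 50 or more UMIs in the 2 sums together. With 1 library per condition there is no test. Intervals are exact at 95%, and for a count of 0 the limit is taken as 3 counts. PCR copies are removed by UMIs, but cells of 1 library are not replicates. Shares were also computed at 2000 UMIs per cell.

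The genes named are those of the rule, Il2ra, Ikzf2 and Ctla4, from each list the members with the highest and lowest ratios or at least 100 CPM, the 10 highest and 10 lowest ratios at 100 CPM or more in each comparison, and genes the study names. Others of a list are given by count or as examples, and some items that meet these criteria are not reported here. Members and lists were chosen with earlier results of these data known, in which interferon-response genes were already lower in several classes, Treg cells among them, so that pattern is no independent support. The splits by Ikzf2 and by Klrg1 or Il1rl1 were chosen after values were seen. Gene positions are from GENCODE M21 and promoters from RefSeq. 10 of the 38 interferon genes had no entry in the promoter table. The computation of ratios was tested on simulated data with known changes. Python 3.11.15, numpy 2.4.6, scipy 1.17.1, pandas 2.3.3 and matplotlib 3.10.9 were used.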

Additional observations from a re-analysis of the deposited data

Results flagged for a closer look

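Foxp3 RNA was also found in T cells that the rule left out for cycling genes. Among T cells with a Mki67 or Top2a UMI and no Cd8 or Cd79 UMI, 17.8% (18 of 101, exact 95% interval 10.9 to 26.7) without butyrate and 12.8% (10 of 78, 6.32 to 22.3) with butyrate held a Foxp3 UMI, above the 0.108% and 0.169% of B cells. The cycling T cells had medians of 6843 and 6764 UMIs, and those with a Foxp3 UMI medians of 11753 and 16616.5, deeper than the Treg cells described above, and up to 7 and 6 Foxp3 UMIs were found in 1 cell. They stood out because they lie outside the population analysed, and the intervals of the libraries overlap.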

How the results depend on the processing

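The log2 ratio of the share of Treg cells stayed within counting error under all 16 settings of both shares, from 0.08 to 0.40 among T cells of the gate and from −0.02 to 0.26 among all cells. Counts past the fold, and their shares of the genes measured, depended on thinning and on the UMI minimum. With butyrate, the 125 higher genes (4.11%) were 60 after thinning (4.91% of 1221), 3 with at least 200 UMIs (0.421% of 712) and 677 with at least 10 (8.91% of 7598), and the 148 lower genes (4.87%) were 93 (7.62%), 17 (2.39%) and 616 (8.11%). Interferon-response genes lower past the fold, 10 of 30 in the analysis above, were 3 of 9 with at least 200 UMIs. With 1 Cd79 and 1 Cd8 UMI allowed (chosen after seeing the data) they were 21 of 31. Their median, −0.44, was −0.38 with at least 2 Foxp3 UMIs, −0.69 with those UMIs allowed and −0.38 with at least 200 UMIs. The NF-κB median, −0.33, was −0.58 with Cd4 required, −0.17 with cycling cells kept, −0.52 with at least 200 and −0.15 with at least 10 UMIs. Against conventional cells, the count of 87 higher genes became 142 with cycling cells kept (65 shared with the 87), 47 after thinning (42 shared), 31 against Cd44+ cells (chosen after seeing the data), 142 with a pseudocount of 1, 41 with at least 200 and 137 with at least 10 UMIs. The 26 lower genes were 9 against Cd44+ cells, 49 with a pseudocount of 1, 16 with at least 200 UMIs and 40 scaled without ribosomal, mitochondrial, immunoglobulin and T cell receptor genes. Klrg1, at 0.89, was −0.0024 with cycling cells kept, and Ccl5, at −1.77, was 0.30 with Cd79 and Cd8 UMIs allowed and 0.25 without its top cell, so neither has a stable direction. Of 1924 ratios of 147 named genes, 1856 stayed within counting error, 65 moved beyond it and 3 changed sign. Of 248 list medians 44 moved, and of 60 shares of cells in a state 12 moved. The causes were not tested. No paired analysis was possible because each condition has 1 library, and for the same reason no replicate could be left out.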

Other observations

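Ccl5, a chemokine of cytotoxic T cells, was the single gene past the fold in opposite directions in Treg cells (−1.77) and conventional CD4+ T cells (0.60), and 36 of its 41 UMIs without butyrate lay in 1 Treg cell that held 2 Foxp3 UMIs. The cell with 40 Gzmb UMIs was another, with 3 Foxp3 UMIs. The X-inactivation gene Xist had no UMI in Treg cells of either library, and the Y-linked gene Ddx3y had 46 and 50 UMIs, so both pools read as male, as far as these genes show.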
